A study of Mus musculus with 8 samples.

Results

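The expression of 10 genes of the YAP and TEAD pathway was followed across mouse colon assembloids, colon organoids and colon tissue. The genes were Yap1 and Tead1 and their reported targets and regulators Ccn1, Ccn2, Ankrd1, Amotl1, Amotl2, Axl, Ajuba and Lats2. They were picked by name, with earlier results of these data known, from the 32285 genes listed in every library, and all 10 were found once in each. Each library held unique molecular identifier (UMI) counts per gene and cell, and a level below is given in CPM, the UMIs of a gene per 1000000 UMIs summed over the cells of 1 class in 1 library. The 8 libraries came in 4 groups of 2, all from C57BL/6 mice. Colon organoids are spheres of epithelium grown without other cells, here in full medium with a Wnt surrogate, the GSK3 inhibitor CHIR-99021, R-spondin 1 and noggin. Colon assembloids were organoids embedded with cultured colon stromal cells in a drop of Matrigel on an orbital shaker, without these Wnt activators and without noggin, and were collected after several days. Tissue epithelium came from crypts shaken off the freshly dissected colon. Epithelial cells were taken from assembloids, organoids and tissue, and stromal cells were taken from assembloids and contained the cells negative for EpCAM, a surface protein of epithelium. The stromal cells of the study came from 2 mice. The study counts 2 biological replicates per group, and the labels do not say whether the epithelial libraries of a group came from different animals. The p-values between groups of epithelium therefore measure the spread between libraries. Comparisons of classes had the library as a block, so that their p-values measure the spread left between sums of class and library.

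YAP, the protein of Yap1, is a coactivator that moves into the nucleus and binds DNA through TEAD proteins such as the one encoded by Tead1. The kinase LATS2 phosphorylates YAP and keeps it in the cytoplasm, angiomotin-like proteins hold it at cell junctions and in the cytoplasm, and the LIM protein AJUBA restrains LATS kinases. In the intestinal epithelium the pathway is known for its part in repair after injury and in fetal growth, and its activity depends on protein position and phosphorylation, neither of which is seen in counts of RNA.

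TEAD proteins bind the 6 bases GGAATG, read as CATTCC on the opposite strand. RefSeq promoter windows of 300 bases (250 before to 50 after the start of transcription, GRCm38.p6) were at hand for 8 of the 10 genes, all but Tead1 and Ccn2. The 6 bases stood on either strand in the windows of 7 of these 8 genes, all but Amotl1, against 16.6% of all 27025 genes with such a window. The sequences below are those of the genes whose levels differed between groups of epithelium and whose window held the 6 bases. They are written along the strand of each gene, with the 6 bases in capitals. The capitals start 65 bases (Amotl2) to 233 bases (Axl) before the RefSeq start, and 5 bases after it in Lats2. The annotated genes of Amotl2 (chr9:102716672-102733418), Ankrd1 (chr19:36111961-36120099) and Lats2 (chr14:57689662-57758388) begin further upstream than these starts, so that their stretches lie within the annotated genes. A match describes the letters and not a bound site.
Ccn1, chr3:145650071-145650100, minus strand: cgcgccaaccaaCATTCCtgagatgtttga
Ankrd1, chr19:36120037-36120066, minus strand: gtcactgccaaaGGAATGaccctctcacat
Ankrd1, chr19:36119950-36119979, minus strand: gacactaagtctGGAATGaaaattcacctg
Ajuba, chr14:54577830-54577859, minus strand: cgttgatggataCATTCCacagtgcccctc
Ajuba, chr14:54577808-54577837, minus strand: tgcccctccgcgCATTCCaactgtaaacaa
Amotl2, chr9:102717727-102717756, plus strand: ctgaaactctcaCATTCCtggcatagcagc
Axl, chr7:25788949-25788978, minus strand: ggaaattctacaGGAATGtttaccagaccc
Lats2, chr14:57746102-57746131, minus strand: cgtgacgcccgtGGAATGccaacaatgtag

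A library held, once cells with under 500 genes or over 10% mitochondrial counts had been removed, 4310 to 29410 cells and 36970661 to 187583982 UMIs, with a median of 3444 to 35219 UMIs per cell. At most 1.07% of the cell barcodes of a library were shared with another. Epithelial cells were the cells that carried epithelial markers (Epcam, Cdh1, keratins and claudins) and no set of fibroblast or macrophage markers. Assembloids gave 25771 and 6785 of them, organoids 4844 and 7180, and tissue 4581 and 4262. In the assembloid libraries 2723 cells (9.26%) and 194 cells (2.51%) carried markers of more than 1 class and were left out. In organoid library 2, another 854 shallow cells with few markers of any class were left out, with a median of 1193 UMIs, in which Yap1 stood at 136 CPM and Tead1 at 389 CPM. In the stromal libraries 7587 and 8573 cells carried fibroblast markers. Another 758 cells of library 1 and 37 of library 2 were squamous epithelial-like, with keratins Krt5 and Krt14. These squamous cells stood on neither side of a stromal comparison. Their sums, and those of the few simple epithelial cells, were still part of the shared fit and its scaling. The stromal files were made by Cell Ranger 6.0.1 and the epithelial files by 7.1.0, so that levels of stroma and epithelium are set side by side below without a test across libraries.

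Ccn2, Ajuba, Amotl2 and Ankrd1 and the partner gene Tead1 were higher in both cultures than in tissue, whereas Ccn1 was lower in organoids, and Yap1 itself passed the test in no comparison of the groups. With edgeR's quasi-likelihood test and an adjusted p under 0.05, 7 of the 10 genes were higher in assembloids than in tissue and none lower, while 26.9% of all 19158 genes tested were higher and 23.5% lower. At an unadjusted p under 0.05 Ccn1 alone was lower, DESeq2 called no gene of the 10 lower, and limma on the mean of per-cell levels called Ccn1 lower. Between organoids and tissue, 5 genes were higher and 1 lower, beside 24.6% higher and 23.3% lower among all genes. Between organoids and assembloids, 2 were higher in organoids and 2 lower, beside 24.7% and 28.8%. The first 2 of these comparisons share the tissue libraries. Malat1, a nuclear RNA that is read here as a sign of RNA quality, moved with the organoids, at 4346 and 6297 CPM against 17347 and 16193 in tissue and 21953 and 14358 in assembloid epithelium, and its part in these differences was not tested. The make-up of the cells differed as well. Cycling or stem marker cells made up 67.4% and 42.5% of organoid, 16.5% and 13.5% of assembloid and 7.50% and 5.48% of tissue cells. Within these cells alone both Tead1 calls over tissue were lost, as given below. The part of this make-up in the differences was not tested. The fits scale libraries by the TMM method, and with library sizes alone the median gene shifted by -0.36 (log2) between assembloids and tissue, by -0.17 between organoids and tissue and by 0.14 between organoids and assembloids. The share of calls that were higher then went from 53.3% to 37.4%, from 51.3% to 41.3% and from 46.1% to 52.7%. Of the 10 genes, 5 were then higher and 1 lower in assembloids over tissue, in place of 7 and 0, while the other two comparisons still had 5 and 1, and 2 and 2.

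**Figure D1:**
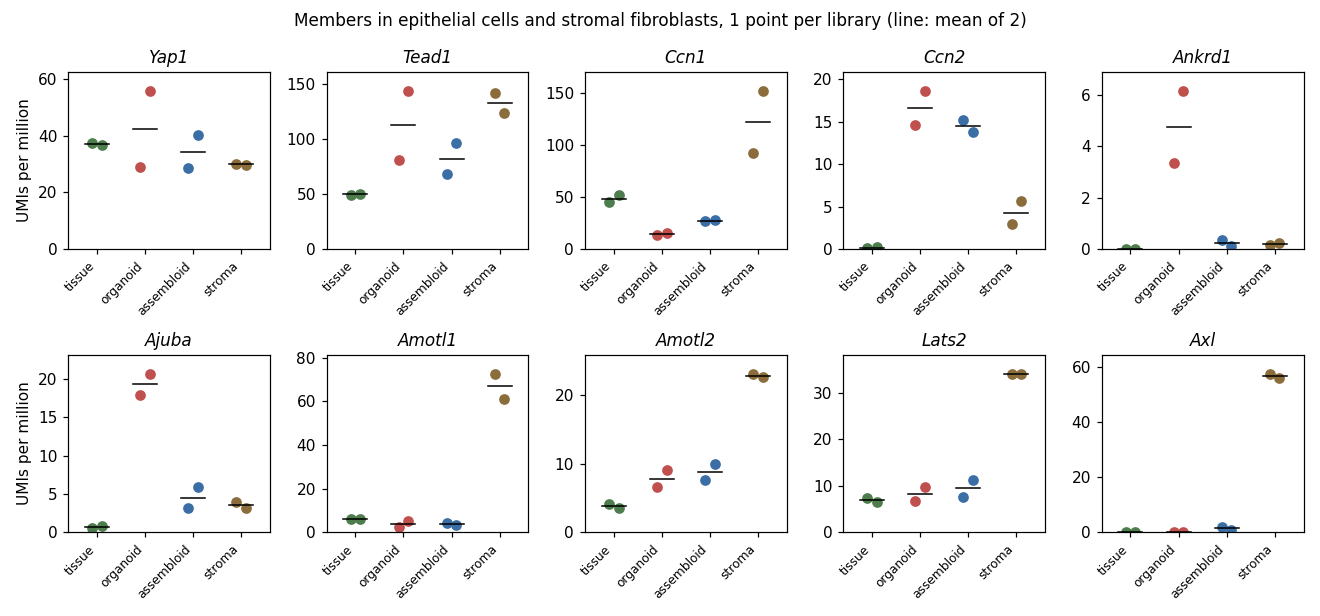
Levels of the 10 genes in CPM (vertical axes, each from 0), with 1 point per library and a line at the mean of 2, for epithelial cells of tissue, organoids and assembloids and for fibroblasts of the stromal libraries. Ccn2 and Ajuba lie near 0 in tissue, Ankrd1 is seen mainly in organoids, and Axl and Amotl1 are seen mainly in stroma, whose files were made by another software version.

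Yap1 stood at 37.5 and 36.7 CPM in tissue, compared with 28.6 and 40.2 in assembloid and 28.9 and 55.9 in organoid epithelium. The 3 groups overlapped, and the organoid libraries lay farther apart than the groups did. The log2 fold change was 0.27 ± 0.24 (SE) for assembloids over tissue (adjusted p = 0.36), 0.39 ± 0.24 for organoids over tissue (adjusted p = 0.21) and 0.11 ± 0.24 for organoids over assembloids (adjusted p = 0.70). An interval of 2 standard errors around the first of these ran from -0.20 to 0.75, and without TMM that change was -0.11. Without organoid library 1 the change over tissue was 0.66 (adjusted p = 0.038).

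Tead1, the DNA-binding partner, was measured at 68.0 and 96.0 CPM in assembloid, 81.0 and 144 in organoid and 48.9 and 49.99 in tissue libraries. Both cultures lay above tissue in each library and overlapped with each other. The log2 fold change over tissue was 1.11 ± 0.23 in assembloids (adjusted p = 0.0051) and 1.38 ± 0.23 in organoids (adjusted p = 0.0018), and the cultures differed by 0.27 ± 0.23 (adjusted p = 0.34). Without TMM the change in assembloids was 0.73 (adjusted p = 0.052), and without tissue library 1 or 2 it was 1.07 or 1.124 (adjusted p = 0.070 and 0.057). Within cells of cycling or stem markers alone, a split chosen after the data had been seen, it was 0.49 (adjusted p = 0.17) in assembloids and 0.75 (adjusted p = 0.052) in organoids, and within goblet marker cells alone it was 0.67 in assembloids (adjusted p = 0.060). The mean Tead1 level of cycling or stem marker cells was 94.4 CPM in assembloids, 120.9 in organoids and 92.7 in tissue.

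Lats2, the inhibitory kinase, showed a smaller difference. Its levels were 7.65 and 11.2 CPM in assembloid, 6.71 and 9.72 in organoid and 7.45 and 6.48 in tissue libraries, so that the organoid and tissue libraries overlapped. In assembloids the change over tissue was 0.82 ± 0.22 (log2, adjusted p = 0.015), but 0.44 without TMM (adjusted p = 0.24). It was 0.89 without tissue library 1 (adjusted p = 0.087), 0.72 without tissue library 2 (adjusted p = 0.14) and 0.62 without assembloid library 2 (adjusted p = 0.065). With all deposited barcodes it was 0.57 (adjusted p = 0.062), and within a band of dissociation stress described with Ccn1 it was 0.72 (adjusted p = 0.15). In organoids it was 0.45 ± 0.22 (adjusted p = 0.12).

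The angiomotin-like genes differed from each other. Amotl2 was found at 7.53 and 9.96 CPM in assembloid, 6.56 and 9.07 in organoid and 4.14 and 3.47 in tissue libraries. Every culture library lay above both tissue libraries, by 1.58 ± 0.22 (log2) in assembloids (adjusted p = 0.00078) and by 1.26 ± 0.22 in organoids (adjusted p = 0.0021). Within goblet marker cells alone the organoid call was lost (1.26, adjusted p = 0.085). Organoids had only 63 and 64 such cells, with 17 Amotl2 UMIs in all. Amotl1 was found at 4.38 and 3.20 CPM in assembloid, 2.27 and 4.91 in organoid and 5.85 and 6.02 in tissue libraries. Its changes of -0.23 ± 0.34 and -0.54 ± 0.34 over tissue did not pass the test (adjusted p = 0.59 and 0.22). With all passing cells kept, those of mixed markers included, the first was 0.46 (adjusted p = 0.22). Within cycling or stem marker cells alone, however, Amotl1 was lower in both cultures than in tissue, by -1.44 (log2, adjusted p = 0.011) in assembloids and by -1.63 (adjusted p = 0.0063) in organoids.

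Ccn2 encodes a secreted matrix protein and is among the most widely used reporters of YAP activity. It was seen 2457 and 1471 times in assembloid epithelium and 2734 and 1690 times in organoid epithelium, but 3 and 7 times in tissue. These counts correspond to 15.3 and 13.7 CPM in assembloid, 14.6 and 18.7 in organoid and 0.064 and 0.19 in tissue libraries, with no overlap between tissue and the cultures. Over the pooled libraries the level was 123 times that of tissue in assembloids (95% counting interval 66.6 to 256) and 133 times in organoids (72.3 to 278), and these intervals cover counting error only. The log2 fold change was 7.30 ± 0.39 in assembloids (adjusted p = 1.5e-05) and 7.31 ± 0.39 in organoids (adjusted p = 8.7e-06). With 1 library left out they ranged from 6.62 to 8.19 and from 6.66 to 8.24, lowest without tissue library 1 and highest without tissue library 2. Between the cultures, the difference of 0.02 ± 0.25 had an interval of 2 standard errors from -0.47 to 0.51 (adjusted p = 0.96).

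The share of epithelial cells with a Ccn2 UMI was compared after each cell had been thinned to 2000 UMIs, which left out 5814 and 725 assembloid, 92 and 2706 organoid and 2150 and 1502 tissue cells. It was 3.02% (exact 95% interval 2.78 to 3.26) and 2.67% (2.28 to 3.11) in assembloids and 2.50% (2.08 to 2.99) and 3.33% (2.82 to 3.90) in organoids. In tissue it was 0 of 2431 cells, which allows a share of up to 0.123%, and 0.036% of 2760 cells. Macrophage-like cells of assembloid library 1 held it in 1 of 118 cells, 0.85% (exact 95% interval 0.021 to 4.63). Those of library 2 held it in 0 of 162 cells, which allows up to 1.85%. Their median depths were 7725 and 12177 UMIs against 3574 and 13987 for the epithelial cells of these libraries. The macrophage interval of library 1 covers its epithelial share, and the part of RNA from other cells in these shares was not tested. Without thinning, the mean share was 9.43% in assembloids, 17.2% in organoids and 0.115% in tissue.

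Ajuba was the second target with a large difference, and its levels were ordered tissue, assembloid, organoid without overlap. They were 3.10 and 5.91 CPM in assembloid, 18.0 and 20.7 in organoid and 0.58 and 0.76 in tissue libraries. The log2 fold change was 3.13 ± 0.33 for assembloids over tissue (adjusted p = 0.00020), 5.10 ± 0.34 for organoids over tissue (adjusted p = 2.2e-05) and 1.97 ± 0.28 for organoids over assembloids (adjusted p = 0.00081). Within goblet marker cells alone the last of these was 0.93 (adjusted p = 0.17), with 29 Ajuba UMIs in those of organoids.

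Ankrd1, which encodes an ankyrin repeat protein of the nucleus and the sarcomere, was at 0 in both tissue libraries. It stood at 3.37 and 6.17 CPM in organoids and at 0.35 and 0.13 in assembloids. With 1190 UMIs in organoids it was at least 119-fold higher than in tissue, and with 71 UMIs in assembloids at least 7.39-fold higher, counted against a floor of 3 UMIs over the tissue group. Of the 71, 57 came from library 1, which alone was at least 9.88-fold higher, against at least 3.65-fold for the 14 of library 2. Organoids exceeded assembloids by 4.02 ± 0.58 (log2, adjusted p = 0.0013), by 3.47 without assembloid library 2 and by 5.06 without assembloid library 1. The assembloid call over tissue (adjusted p = 0.0057) rested on few UMIs and was lost when the mean of per-cell levels was tested with limma (adjusted p = 0.19), within cycling or stem marker cells alone (adjusted p = 0.10) and within a band of dissociation stress described with Ccn1 (adjusted p = 0.16).

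The organoid UMIs of Ankrd1 lay in few cells. Library 1 had 631 UMIs in 136 of 4844 cells and library 2 had 559 UMIs in 109 of 7180 cells, with up to 55 and 76 UMIs in 1 cell. The 1% of cells with the most Ankrd1 held 81.9% and 93.2% of them. Organoid cells with a Ccn2 UMI also had more Ankrd1, at 10.2 and 13.5 CPM against 0.56 and 3.72 in cells without one. For Ajuba the levels were 26.9 and 28.6 against 14.3 and 18.0, and for Amotl2 9.32 and 14.4 against 5.42 and 7.28. Tead1 was nearly level, at 84.2 and 146 against 79.7 and 143, and Yap1 stood at 28.6 and 49.9 against 28.97 and 57.9. Cells with a Ccn2 UMI were also deeper, with medians of 44134 and 24295 UMIs against 33017 and 6397, and the part of depth in these differences was not tested. In assembloids Ankrd1 stood at 0.36 and 0.38 in cells with a Ccn2 UMI and at 0.35 and 0.079 in those without.

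Axl, a receptor tyrosine kinase, was counted 325 and 85 times in assembloid epithelium, 0 and 3 times in organoids and 0 and 3 times in tissue. The pooled assembloid level was 42.7 times that of tissue (95% counting interval 14.5 to 208) and 142 times that of organoids (48.2 to 690), and both differences passed the test (adjusted p = 0.0054 and 0.0019). The fitted log2 changes rest on these few counts. They were 5.64 over tissue, ranging from 4.50 without tissue library 1 to 10.5 without tissue library 2, and -6.95 for organoids over assembloids, ranging from -10.34 without organoid library 2 to -5.68 without organoid library 1, and each stayed called. Organoids and tissue did not differ for Axl in a way these few counts could show. Fibroblast markers moved with the assembloid result. The 9 fibroblast markers summed to 154 and 31.3 CPM in assembloid epithelial cells, none of them at 0, against 0.58 and 0.99 in organoids and 6.30 and 5.24 in tissue, where 5 to 7 of the 9 were at 0 and Pdgfrb made up nearly all. Without Pdgfrb, the sums are 1.30% and 0.259% of the level in fibroblasts of the same libraries, and fibroblast RNA in these shares would carry an amount equal to 62.3% and 31.9% of the Axl level of the epithelial cells. The same shares come to 10.1% and 1.82% for Ccn1, 19.6% and 4.51% for Amotl1 and 0.80% and 0.25% for Ccn2. Both Axl calls stayed when the cells with a fibroblast marker UMI were left out. The part of fibroblast RNA in the differences was not tested.

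**Figure D2:**
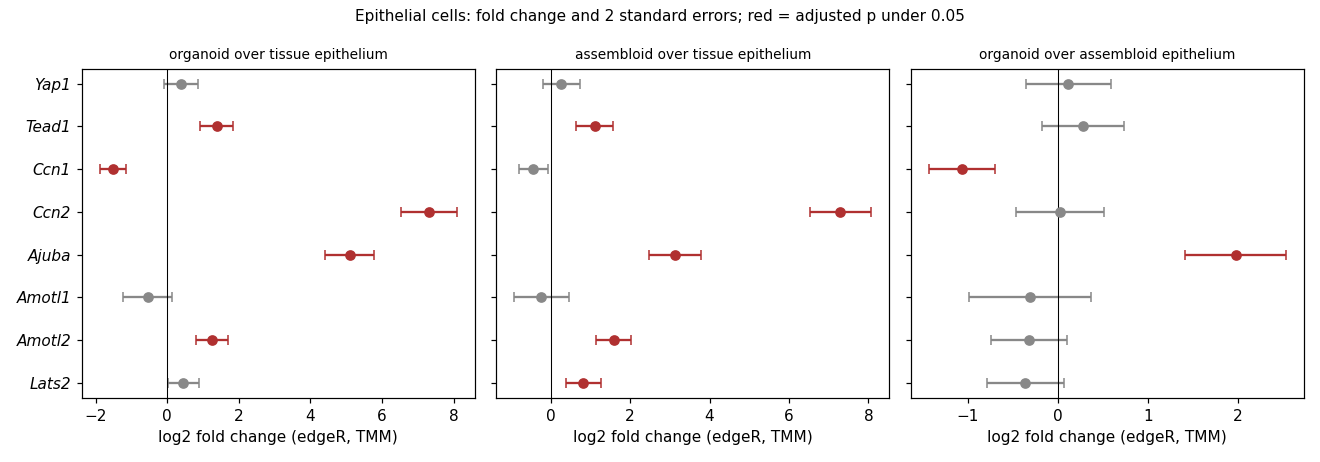
Log2 fold change (horizontal axes, edgeR with TMM) of 8 genes between groups of epithelial libraries, with bars of 2 standard errors and red for an adjusted p under 0.05. Ccn2 and Ajuba lie far to the right in both comparisons with tissue, and Ccn1 lies to the left of 0 in all 3, while Ankrd1 and Axl are given in the text because 1 group has almost no counts.

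Ccn1, the other secreted matrix protein of the CCN family, went the opposite way to Ccn2. It stood at 26.7 and 27.7 CPM in assembloid, 13.5 and 15.4 in organoid and 44.8 and 52.3 in tissue libraries, so that the 3 groups were ordered organoid, assembloid, tissue without overlap. In organoids it fell by 1.51 ± 0.19 (log2) from tissue (adjusted p = 0.00036) and by 1.07 ± 0.18 from assembloids (adjusted p = 0.0018). In assembloids the change from tissue was -0.44 ± 0.18 (adjusted p = 0.072) and -0.84 without TMM (adjusted p = 0.0084). It was -0.46 without organoid library 1 and -0.45 without organoid library 2 (adjusted p = 0.038 and 0.044). It also passed the test at no more than 5% mitochondrial counts (-0.68, adjusted p = 0.018), without the cells that had a fibroblast marker UMI (-0.53, adjusted p = 0.038) and within cycling or stem marker cells alone (-0.82, adjusted p = 0.0090).

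Immediate early and heat shock genes, which cells switch on while they are being dissociated, moved with Ccn1. All 3 sources of epithelium were treated with TrypLE, but tissue crypts were first taken off with EDTA and assembloids were digested with Liberase TL and DNase I. The assembloid digest was also collected into medium with serum and a ROCK inhibitor. The study does not describe this step for tissue or organoid epithelium, and the part of such handling in the levels was not tested. The 13 genes of a dissociation stress list (Fos, Jun, Egr1, Hspa1a and others) summed to 4086 and 4764 CPM in tissue, 1711 and 2126 in assembloids and 546 and 521 in organoids, the same order as Ccn1. Of the 13, 8 were lower in assembloids than in tissue, 13 were lower in organoids than in tissue and 12 were lower in organoids than in assembloids, with none higher, and medians of -1.07, -3.10 and -2.13 (log2) beside 0.03, 0.05 and -0.01 for all genes. With 10 to 20 stress list UMIs per 10000 of the cell, a band chosen after the data had been seen, Ccn1 stood at 18.1 and 20.6 CPM in tissue, 23.3 and 21.2 in assembloids and 28.2 and 30.5 in organoids. The log2 fold change within this band was 0.56 for assembloids over tissue (adjusted p = 0.080), 0.44 for organoids over tissue (adjusted p = 0.16) and -0.11 for organoids over assembloids (adjusted p = 0.71). In CPM, before TMM scaling, both organoid libraries lay above both assembloid libraries, so that the sign of the last difference turns with the scaling. The band held 692 and 403 tissue, 10272 and 2346 assembloid and 525 and 890 organoid cells. It took the low end of tissue (lower quartiles 18.0 and 28.4) and the high end of organoids (upper quartiles 7.35 and 8.21). Median depths in it ran from 1205.5 (tissue library 1) to 29522 UMIs (organoid library 1). Its cells were not matched otherwise, and the part of stress in the Ccn1 differences was not tested. In the same band Ccn2 remained called, at 16.4 and 13.9 CPM in assembloid, 13.1 and 17.5 in organoid and 0 and 0.25 in tissue libraries.

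**Figure D3:**
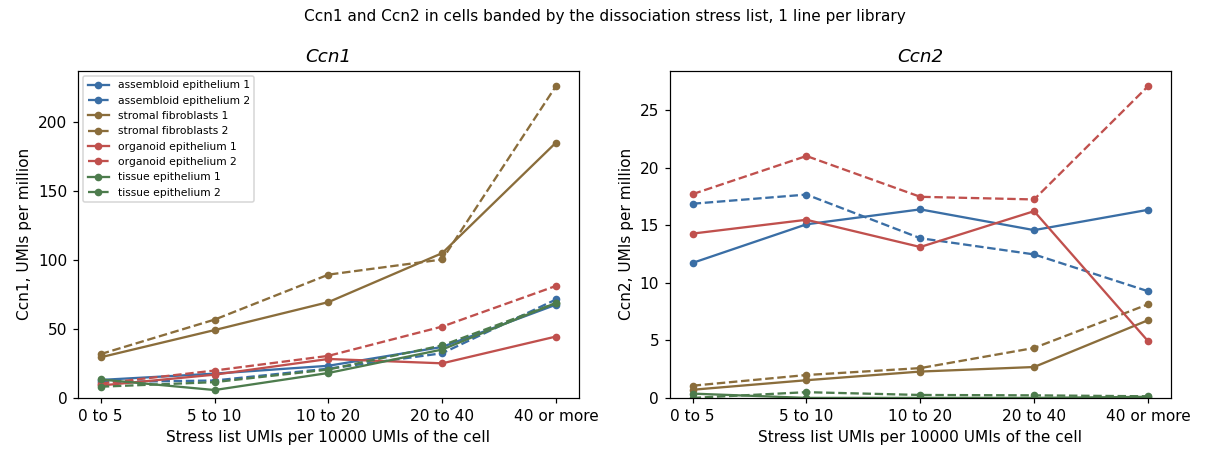
Ccn1 (left) and Ccn2 (right) in CPM in cells grouped by the number of stress list UMIs per 10000 (horizontal axis), with 1 line per library for epithelial cells and stromal fibroblasts. Ccn1 is higher in the last than in the first band in all 8 libraries, at 67.6 against 13.02 in assembloid library 1 for example. Ccn2 stays near 0 in tissue in every band, where its few UMIs could show no trend. In stromal fibroblasts Ccn2 is higher in the last band, at 6.74 against 0.71 CPM in library 1 and 8.12 against 1.06 in library 2. The first bands there hold only 3 and 1 Ccn2 UMIs.

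Fibroblasts that had stayed with the epithelial cells of assembloids allowed both compartments to be compared within the same libraries. The libraries held 628 and 511 such cells. Of 9 genes tested, 6 were higher in fibroblasts and none lower, beside 23.1% higher and 25.8% lower among 17796 genes, and Ankrd1 had too few counts. No gene was lower at an unadjusted p under 0.05 or by DESeq2. Axl reached 96.4 and 97.8 CPM in fibroblasts against 2.02 and 0.79 in epithelial cells (log2 6.08 ± 0.42, adjusted p = 0.00050). Amotl1 reached 65.7 and 55.9 against 4.38 and 3.20 (3.87 ± 0.20, adjusted p = 0.00039). Ccn1 stood at 207 and 195 in fibroblasts against 26.7 and 27.7 (2.75 ± 0.16, adjusted p = 0.00040). Beside it, the stress list summed to 2832 and 3833 in fibroblasts and Malat1 stood at 42000 and 21844 CPM there, and their part in this difference was not tested. Tead1, Amotl2 and Lats2 were higher by 1.63 ± 0.16, 1.87 ± 0.20 and 2.38 ± 0.18. Ccn2, at 9.35 and 13.2 in fibroblasts against 15.3 and 13.7 in epithelial cells, did not pass the test (-0.50 ± 0.26, adjusted p = 0.17), nor did Ajuba (-0.11 ± 0.43, adjusted p = 0.86) or Yap1 (0.34 ± 0.17, adjusted p = 0.14).

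In the stromal libraries, fibroblasts carried Yap1 at 30.2 and 29.7 CPM and Tead1 at 142 and 124. Lats2 was found at 34.0 and 34.1, Amotl1 at 72.5 and 61.1, Amotl2 at 23.1 and 22.6 and Axl at 57.4 and 55.9. The libraries lay close together for these genes, but not for the secreted targets. Ccn1 was 92.4 in library 1 and 152 in library 2, and Ccn2 was 2.89 and 5.5999. The stress list of the median fibroblast was 18.6 and 40.6 UMIs per 10000 in the same libraries. Ankrd1 was seen 20 and 28 times. The 55 and 34 simple epithelial cells left in these libraries had Ccn2 at 17.3 and 7.17 CPM.

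Telocyte-like and trophocyte-like fibroblasts, the first of which line the crypt top and make BMP ligands while the second lie below the crypts and make R-spondin 3 and BMP inhibitors, differed in 3 of 9 genes tested, beside 21.1% of 11932 genes called in either direction. Trophocyte-like cells (4417 and 5128) were marked by Cd34, Cd81, Grem1, Rspo3 and Ackr4 and telocyte-like cells (345 and 498) by Foxl1, Wnt5a, Sox6, Bmp5 and Bmp7. Amotl2 was lower in telocyte-like cells, at 11.8 and 9.07 against 25.7 and 26.8 CPM (log2 -1.43 ± 0.15, adjusted p = 3.9e-06). Ccn2 was lower as well, at 0.93 and 1.56 against 2.81 and 6.24 (-1.90 ± 0.51, adjusted p = 0.015). With stricter gates its difference was -1.42 (adjusted p = 0.14), and without the block for library it was -1.93 (adjusted p = 0.063). Lats2 fell by 0.55 ± 0.13 (adjusted p = 0.0060, but 0.058 by DESeq2 and 0.13 without the block), at 27.2 and 26.4 against 36.7 and 37.6. Ccn1 stood at 70.1 and 107 against 94.4 and 154 (-0.56 ± 0.23, adjusted p = 0.10). Beside both Ccn1 and Ccn2, the stress list stood at 2172 and 3283 against 2475 and 5253, and its part was not tested. Yap1 was nearly level, at 30.3 and 29.4 against 30.05 and 29.98, and its difference of -0.09 ± 0.09 had an interval of 2 standard errors from -0.28 to 0.10. The median telocyte-like cell had 11.5 and 10.8 cycling marker UMIs per 10000 against 1.85 and 0.84 in trophocyte-like cells. Its depth was 21832 and 21997 UMIs against 15723 and 13442, and Malat1 stood at 10106 and 13407 CPM against 17186 and 22746. The part of these in the differences was not tested.

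Smooth muscle-like and myofibroblast-like cells, marked by Myh11, Actg2, Des and others, numbered only 11 and 13, and 0 of 9 genes passed edgeR's test against the other fibroblasts, beside 2.68% of all genes. At an unadjusted p under 0.05 there was 1 gene, Ccn2, which DESeq2 also called. Ccn2 stood at 18.5 and 28.2 CPM there, from 3 and 5 UMIs, and its change against the mean of the 3 fibroblast classes was 2.85 ± 1.04 (log2, adjusted p = 0.21). Those classes had 2.81 and 6.24 (trophocyte-like), 0.93 and 1.56 (telocyte-like) and 3.44 and 5.49 CPM (other fibroblasts). Ccn1 was 61.7 in library 1 and 333 in library 2, and the stress list was 2550 and 8085.

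The other stromal classes were compared with the same mean of the 3 fibroblast classes. In endothelial-like cells (27 and 70) 4 of 9 genes were called, beside 31.1% of all genes. Axl (23.95 and 8.70 CPM, log2 -2.17 ± 0.27, adjusted p = 1.4e-05), Ccn1 (59.9 and 52.9, -1.21 ± 0.29, adjusted p = 0.0042) and Tead1 (113 and 62.9, -0.83 ± 0.18, adjusted p = 0.0017) were lower, and Amotl1 was higher (120 and 83.0, 0.49 ± 0.15, adjusted p = 0.024). Fibroblast markers summed to 4017 and 1489 CPM in these cells against 8415 and 11821 in fibroblasts, and the stress list to 1425 and 1509, while Malat1 stood at 9722 and 7456. Without the block the calls of Ccn1 (-1.07, adjusted p = 0.17) and Amotl1 (adjusted p = 0.089) were lost.

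Glia-like cells (98 and 90) differed in 2 genes, beside 31.4% of all genes. Axl reached 220 and 166 CPM, the highest level of any class in both libraries (1.78 ± 0.14, adjusted p = 7.4e-08). This gene encodes a receptor for GAS6, a ligand that many tissues make. Ccn1 was lower, at 30.1 and 83.4 (-1.04 ± 0.27, adjusted p = 0.0079), with the stress list at 4251 and 4779, and this call was lost without the block (-0.98, adjusted p = 0.19). Fibroblast markers summed to 2963 and 3086 in these cells, Malat1 stood at 65386 and 45716 CPM, and the median depth was 7382 and 8353 UMIs against 14939 and 13261 in fibroblasts.

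Neuron-like cells (60 and 83), marked by Elavl4, Prph and others, had 4 of 9 genes lower, beside 44.6% of all genes called. Yap1 was 15.6 and 17.0 CPM, the lowest among these classes (-1.02 ± 0.18, adjusted p = 0.00024). Axl was lower by -1.31 ± 0.20, Tead1 by -0.75 ± 0.16 and Amotl1 by -0.43 ± 0.16 (adjusted p = 7.1e-05, 0.0010 and 0.037). Fibroblast markers summed to 2410 and 1685 CPM in these cells, and Malat1 stood at 27525 and 29324 against 17186 and 22746 in trophocyte-like cells. With no filter on low counts the Amotl1 call in endothelial-like cells was lost (adjusted p = 0.088), and with DESeq2 that in neuron-like cells was lost (adjusted p = 0.062), as it was without the block (adjusted p = 0.12). The squamous epithelial-like cells, which were not tested, had Ajuba at 32.2 and 33.0 against 3.87 and 3.13 in fibroblasts, and Lats2 at 4.55 and 4.24.

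**Figure D4:**
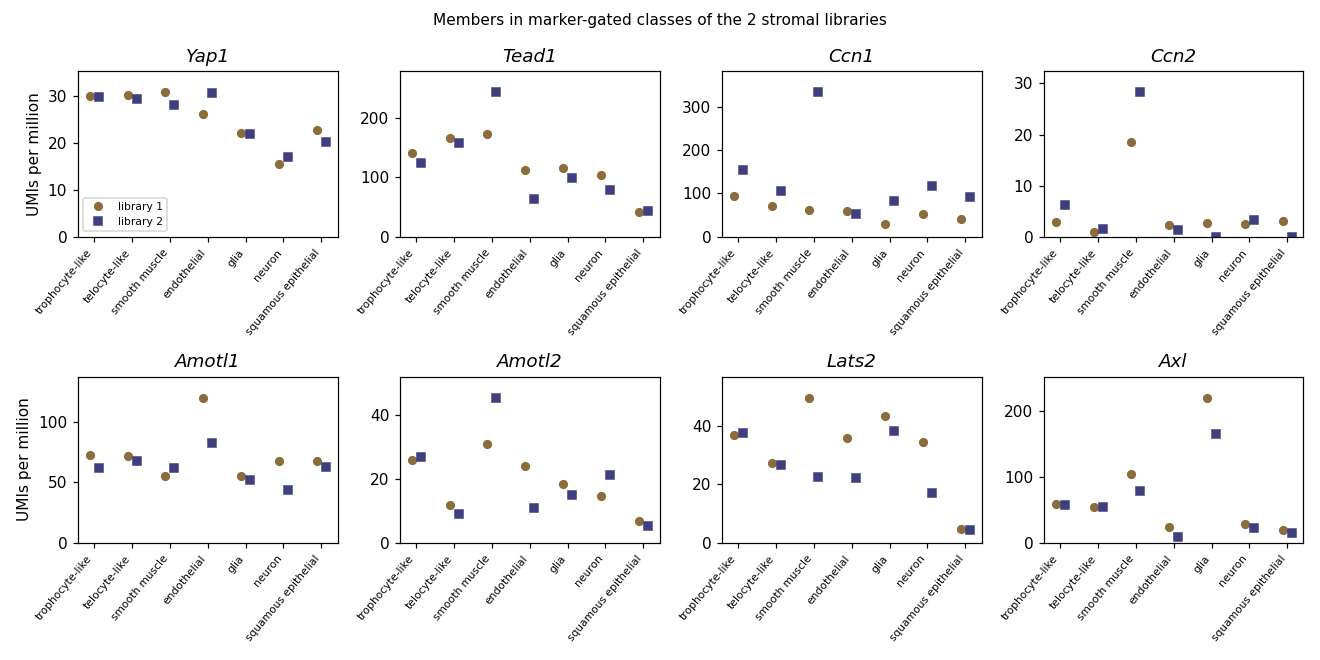
Levels of 8 genes in CPM (vertical axes, from 0) in 7 marker-gated classes of the 2 stromal libraries, circles for library 1 and squares for library 2. Axl stands highest in glia-like cells, Amotl2 is lower in telocyte-like than in trophocyte-like cells, and Yap1 is lowest in neuron-like cells.

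Along the crypt, cycling or stem marker cells were compared with colonocyte-like cells, the absorptive cells of the crypt top, in the same libraries. The gates held 440 and 324 colonocyte-like and 352 and 236 cycling or stem cells in tissue and 1230 and 969 against 4851 and 1040 in assembloids. Organoids had only 10 and 9 colonocyte-like cells and were not fitted. In tissue 6 of 10 genes were called, beside 50.9% of 16845 genes, and in assembloids 5, beside 49.6%. Tead1, Ccn1 and Amotl1 were lower in colonocyte-like cells in both tissue and assembloids, while Lats2 was higher. Malat1 also moved along the axis in assembloids, from 15812 and 10895 CPM in cycling or stem cells to 36736 and 16907 in colonocyte-like cells, against 18503 and 17209 to 19888 and 15081 in tissue, and its part in the results was not tested.

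Tead1 fell from 95.4 and 89.9 CPM in cycling or stem cells of tissue to 16.2 and 21.4 in colonocyte-like cells (log2 -1.81 ± 0.15, adjusted p = 1.7e-09), and from 71.2 and 118 to 42.8 and 47.2 in assembloids (-0.58 ± 0.11, adjusted p = 0.00023). Amotl1 went from 11.97 and 13.4 to 0.69 and 0.61 in tissue (-3.72 ± 0.48, adjusted p = 1.1e-06). Over both tissue libraries these levels rest on 117 UMIs in cycling or stem cells and only 8 in colonocyte-like cells. In assembloids, with 203 and 30 UMIs, Amotl1 went from 3.56 and 2.97 to 1.02 and 1.10 (-1.13 ± 0.38, adjusted p = 0.016). Without assembloid library 1 the latter was -0.86 (adjusted p = 0.14). Lats2 rose in tissue from 7.02 and 3.83 to 18.5 and 14.5 (2.07 ± 0.25, adjusted p = 5.7e-07). In assembloids it went from 6.97 and 10.9 to 9.98 and 11.05 (0.71 ± 0.20, adjusted p = 0.0053). In CPM, before TMM scaling, assembloid library 2 was thus nearly level for Lats2, and this fit was not run without TMM. Without the block for library the assembloid calls of Tead1 (adjusted p = 0.079) and Lats2 (adjusted p = 0.052) were lost, and with a stricter gate that of Amotl1 (-0.86, adjusted p = 0.14).

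Ccn1 fell from 74.4 and 76.2 to 13.3 and 23.4 in tissue (-1.58 ± 0.17, adjusted p = 6.2e-08) and from 27.3 and 33.8 to 16.0 and 15.1 in assembloids (-0.51 ± 0.14, adjusted p = 0.0050), a call lost without the block (adjusted p = 0.12). The stress list moved with it in tissue, where it was 4958 and 5679 in cycling or stem cells and 2565 and 3665 in colonocyte-like cells, but stood at 1648 and 2214 against 1892 and 2200 in assembloids. Ccn2 fell in assembloids from 17.2 and 14.8 to 5.80 and 3.20 (-1.43 ± 0.30, adjusted p = 0.00059). In tissue, colonocyte-like cells had no Ccn2 UMI and the cycling or stem cells had 0.32 and 0.96 CPM.

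Yap1 went from 59.4 and 49.1 to 23.95 and 23.02 in tissue (-0.70 ± 0.17, adjusted p = 0.0014), a call that was lost without tissue library 1 (-0.43, adjusted p = 0.28) or 2 (-0.67, adjusted p = 0.053), without the block (-0.68, adjusted p = 0.075) or with a stricter gate (-0.54, adjusted p = 0.083), and from 28.8 and 46.1 to 23.4 and 24.1 in assembloids (-0.19 ± 0.14, adjusted p = 0.28). Ajuba, at 1.76 and 1.60 against 0.28 and 0 in tissue, was called there (-2.83 ± 0.85, adjusted p = 0.0090) but not without tissue library 2 (-2.004, adjusted p = 0.091) or the top 5% of cells by UMIs (-1.71, adjusted p = 0.18). Without tissue library 1, which leaves tissue colonocyte-like cells with no Ajuba UMI, the fitted change was -7.88. Ajuba was not called in assembloids (-0.49 ± 0.29, adjusted p = 0.18). The cycling gate cuts a continuous score, and 7.46% to 24.7% of the cells of a library lay within 25% of its limit.

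**Figure D5:**
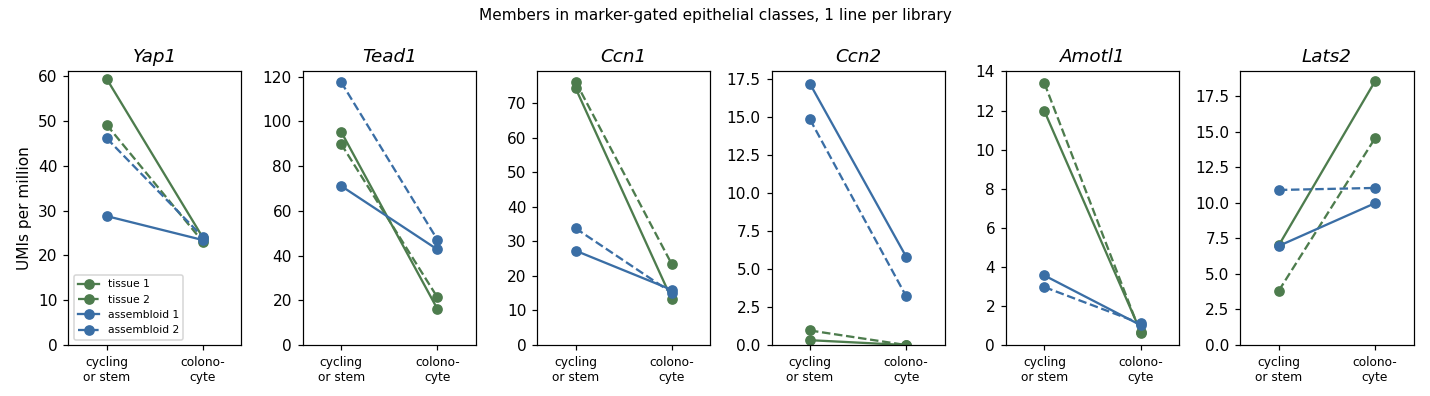
Levels of 6 genes in CPM (vertical axes, from 0) in cycling or stem marker cells and in colonocyte-like cells, with 1 line per library, green for tissue and blue for assembloids. The lines of Tead1, Ccn1 and Amotl1 fall in all 4 libraries and those of Lats2 rise, while the log2 changes given above, which are not the slopes in CPM, are larger in tissue.

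The difference between the 2 crypt axes was tested as an interaction, in which 20.6% of all genes were called. It was past the threshold for 4 genes. The log2 change from cycling or stem to colonocyte-like cells was larger in assembloids than in tissue by 1.23 ± 0.19 for Tead1 (adjusted p = 8.7e-05), by 1.06 ± 0.22 for Ccn1 (adjusted p = 0.0015) and by 2.59 ± 0.65 for Amotl1 (adjusted p = 0.0066), all 3 being less negative in assembloids, and it was lower by -1.36 ± 0.33 for Lats2 (adjusted p = 0.0047). Without the block the calls of Tead1, Ccn1 and Lats2 were lost (adjusted p = 0.058, 0.11 and 0.058), and with a stricter gate that of Amotl1 (2.51, adjusted p = 0.059). With a library left out, the Amotl1 call was lost without tissue library 1 or 2 or assembloid library 2 (adjusted p = 0.11, 0.11 and 0.060), that of Ccn1 without tissue library 1 (0.55, adjusted p = 0.19) and that of Lats2 without tissue library 2 (-1.31, adjusted p = 0.056).

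Other genes of the pathway were followed in lists, whose counts stand beside 26.9% higher and 23.5% lower among all genes in assembloids over tissue, 24.6% and 23.3% in organoids over tissue, and 24.7% and 28.8% in organoids over assembloids. The medians of all genes were 0.03, 0.05 and -0.01 (log2). Of 6 paralogues and cofactors of YAP and TEAD, 4 were higher and 1 lower in assembloids over tissue. Organoids had 5 higher than tissue and 3 higher than assembloids. Their median log2 fold changes were 1.46, 2.63 and 0.55. Wwtr1, which encodes the YAP paralogue TAZ, rose from 3.78 and 3.69 CPM in tissue to 12.99 and 18.6 in assembloids and 19.6 and 30.3 in organoids (2.46 ± 0.22 and 2.95 ± 0.22 over tissue, adjusted p = 9.2e-05 and 3.4e-05). Tead4 rose from 4.87 and 4.58 to 9.48 and 14.2 and to 16.0 and 24.2. Vgll4, a competitor of YAP for TEAD proteins, was lower in assembloids than in tissue (44.2 and 56.1 against 119 and 112, -0.81 ± 0.20, adjusted p = 0.0099) and higher in organoids (134 and 194, 0.72 ± 0.20, adjusted p = 0.017).

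Of 20 Hippo kinases and regulators, 4 were higher and 2 lower in assembloids than in tissue, 7 higher and 1 lower in organoids than in tissue, and 6 higher and 2 lower in organoids than in assembloids, with medians of 0.18, 0.27 and 0.03. The assembloid shares lie below those of all genes, and nothing particular to this list was seen there. Frmd6, a FERM protein upstream of the kinases, was higher in both cultures (1.58 ± 0.22 and 1.45 ± 0.22 over tissue). Ptpn14, a phosphatase that binds YAP, was higher in organoids than in tissue and assembloids (2.65 ± 0.30 and 2.66 ± 0.29). Stk3, which encodes the Hippo kinase MST2, was lower in assembloids than in tissue (-0.90 ± 0.20, adjusted p = 0.0061). Dchs1 and Fat4, cadherins among the 4 genes higher in assembloids and named after their values were seen, stood at 0.79 and 0.59 CPM and at 0.30 and 0.22 CPM there. These 2 genes and Frmd6 were also higher in fibroblasts than in epithelial cells of these libraries, and fibroblast RNA in the shares given for Axl would carry 23.6% and 5.96% of the Dchs1 level, 12.3% and 1.91% of the Fat4 level and 16.7% and 2.79% of the Frmd6 level.

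Of 15 other reported YAP targets, 14 could be tested. In assembloids 5 were higher and 2 lower than in tissue, in organoids 3 were higher and 6 lower than in tissue, and 3 were higher and 6 lower in organoids than in assembloids, with medians of 0.18, -0.41 and -0.90. Myof, a membrane repair protein, was higher in both cultures (2.18 ± 0.19 and 1.88 ± 0.19, adjusted p = 1.0e-04 and 0.00015). F3, which encodes tissue factor, was at 257 and 298 CPM in assembloids against 29.2 and 30.5 in tissue and 24.7 and 34.0 in organoids (3.604 ± 0.21 over tissue, adjusted p = 2.2e-05). Gadd45a, a gene of the DNA damage response, was higher in assembloids (2.37 ± 0.27) and lower in organoids (-1.78 ± 0.26) than in tissue. Nuak2 and Crim1 were the 2 lower in assembloids than in tissue (-1.99 ± 0.21 and -1.41 ± 0.27, adjusted p = 0.00022 and 0.0033), at 3.28 and 4.95 against 20.3 and 22.3 CPM and at 16.9 and 29.2 against 83.1 and 75.5. Nt5e, an ectonucleotidase, fell in organoids to 0.31 and 1.16 CPM from 26.9 and 31.7 in tissue. Fibroblast RNA in the same shares would carry 90.9% and 97.2% of the assembloid level of Ccdc80, also named after its values were seen. It would carry at most 3.30% of that of Myof, F3 or Gadd45a. For the TEAD cofactor gene Vgll3 it comes to 38.4% and 24.8%, but for Wwtr1 to 10.7% and 1.71%. Both Ccdc80 and Vgll3 were also called higher in organoids than in tissue. The part of fibroblast RNA in the assembloid differences of these genes was not tested.

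Within the stromal libraries, the genes whose levels were most like those of 3 of the pathway's genes were found by Pearson's r. It was taken over 18 sums of class and library, which share libraries and depth and include the squamous and simple epithelial classes. For Ccn1 they were Egr1 (r = 0.94), Btg2 (0.86) and Hspa1a (0.86), all on the stress list. For Yap1 they were Tmem109 (0.90), Atf1 (0.90) and Spcs3 (0.89). For Ccn2, whose counts were low, they were Ercc6l2 (0.78), Msl2 (0.75) and Cspp1 (0.75).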

How the data were processed

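The authors deposited raw UMI counts, by gene and barcode, of 3′ single-cell libraries, made per the file headers with Cell Ranger 6.0.1 (stroma) and 7.1.0 (epithelium), while the labels name Cell Ranger 6 and mm10. Whether introns were counted is not given in the sources used here. A cell was kept when it had 500 genes or more and no more than 10% of its counts from mitochondrial genes, as in the study's methods for stroma. Classes were gated on at least 3 distinct markers and on their UMIs per 10000. Limits were 20 for fibroblast, epithelial and macrophage markers, 10 for squamous and cycling markers, 5 for stem markers and 3 for rare stromal classes. For differentiated epithelium the limit was 20 or 4 times the library median. Telocyte-like and trophocyte-like fibroblasts were split by at least 3 distinct markers alone, with no limit on UMIs. A trophocyte-like cell could hold at most 1 telocyte marker, while a telocyte-like cell could hold any trophocyte marker. These limits were set after the distributions had been seen, and the genes and lists were chosen with earlier results of these data known. No doublet caller was run. As an alternative, the top 5% of cells by UMIs were left out.

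UMIs were summed per library and class and tested across libraries with edgeR 4.0.16 (quasi-likelihood, TMM, filterByExpr) in R 4.3.3, with Benjamini-Hochberg adjustment over all genes tested and a threshold of 0.05. The standard error is the log2 fold change divided by the root of F. The 3 epithelial groups shared 1 fit, and fits of classes had the library as a block, since classes came from the same library. An exact permutation test of 2 against 2 cannot go below 0.333, so none was run. Same-numbered libraries did not deviate together (r from -0.02 to 0.06 over 19158 genes). Replicates differed far beyond counting noise, with a chi-square per degree of freedom of 22.4 to 372. Fits were tested on simulated data, where small changes were mostly missed and many larger ones were missed too. The simulation gave every gene the same assumed dispersion, which was not estimated from these libraries, so the share missed need not hold here. A gene that misses the threshold is not shown to be equal between groups. The named genes are all 10 members, up to 3 called genes in each direction of each list with a mean log2 CPM from 3 upwards, and the 3 genes most like Yap1, Ccn1 and Ccn2 with a mean log2 CPM from 4 upwards, of which the text gives a selection for the lists. Alternatives were DESeq2 1.42.0, limma 3.58.1 on log2 of the mean CPM + 1, no TMM, no filter, the replicate block, each library left out, other cell filters and gates, and, added after the data had been seen, cycling or stem cells, goblet cells and 1 stress band alone. Fits of classes within libraries were not run without TMM. Python 3.11.15 made the tables. The summed level of the glial markers is not reported here.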

Additional observations from a re-analysis of the deposited data

Results flagged for a closer look

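For 4 genes the change from cycling or stem marker cells to colonocyte-like cells differed between assembloids and tissue by an interaction term in edgeR's test. The log2 change differed by 1.06 for Ccn1, 1.23 for Tead1, 2.59 for Amotl1 and -1.36 for Lats2 (assembloid minus tissue). That of Amotl1 rests on only 8 UMIs in the colonocyte-like cells of tissue. Leaving out 1 library of a group, with the lone library assumed to vary like the others, ended some of these calls. The Ccn1 difference was 0.55 without tissue library 1 (adjusted p = 0.19). For Amotl1 it was 2.68 without tissue library 1 (adjusted p = 0.11), 2.34 without tissue library 2 (adjusted p = 0.11) and 2.09 without assembloid library 2 (adjusted p = 0.060), and for Lats2 it was -1.31 without tissue library 2 (adjusted p = 0.056). The Tead1 difference was called under each library left out. Without the library block, all 4 missed the threshold except Amotl1 (adjusted p = 0.058 for Tead1, 0.11 for Ccn1 and 0.058 for Lats2). Beside the Ccn1 difference, the stress list was higher in cycling or stem than in colonocyte-like cells of tissue and nearly level in assembloids, and its part in the difference was not tested.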

How the results depend on the processing

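Of 335 alternative values for the 17 called results of the 3 epithelial comparisons, 316 kept direction and call, 18 lost the call and 1 turned, while of 258 for the 13 uncalled results 14 gained a call and 24 turned. Among the gains, at no more than 5% mitochondrial counts Yap1 was 0.60 and Lats2 1.01 for organoids over tissue (adjusted p = 0.030 and 0.018, edgeR), and with all passing cells Axl was -3.31 there (adjusted p = 0.027) and Amotl1 -0.998 for organoids over assembloids (adjusted p = 0.017). All 30 for the 6 genes called between fibroblasts and epithelial cells kept both, as did 55 of 65 in the stromal classes and 145 of 165 along the crypt. The causes were not tested.

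Values that changed sign were mostly small. For assembloids over tissue, Yap1 was -0.11 without TMM and -0.077 in cycling or stem cells alone, Amotl1 was 0.46 with all passing cells, 0.052 in goblet cells and 0.89 in the stress band, and Ccn1 was 0.56 in that band. For organoids over tissue, Ccn1 was 0.44 and Amotl1 0.41 in the stress band, and Axl, with 3 UMIs in each group, was 2.79 at no more than 5% mitochondrial counts and 2.27 in cycling or stem cells. For organoids over assembloids, Ccn2 was -0.047 by DESeq2, -0.10 with all barcodes, -0.13 without the top 5% of cells, -0.22 by limma, -0.16 in cycling or stem cells, -1.75 in goblet cells and -0.52 in the stress band, and Yap1 was -0.30 in goblet cells. The goblet value of Ccn2 rests on 11 UMIs in organoids. With each library left out in turn, Amotl1 ranged from -0.58 to 0.049 for assembloids over tissue and from -0.73 to 0.053 for organoids over assembloids, Axl from -4.71 to 3.57 for organoids over tissue, and for organoids over assembloids Yap1 ranged from -0.20 to 0.41 and Ccn2 from -0.13 to 0.20.

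The number of all genes called was 9660 for assembloids over tissue, but 5369 to 10168 with a library left out, lowest without tissue library 1 (5369) or 2 (5681), 4656 in goblet cells and 5913 in the stress band. For organoids over tissue it was 9177, but 5317 to 9908 with a library left out (5317 and 5503 without tissue library 1 or 2), 5765 in cycling or stem cells, 3473 in goblet cells and 5427 in the stress band. For organoids over assembloids it was 10246, but 3235 in goblet cells and 5530 in the stress band. In goblet cells 4 of the 10 genes were called for assembloids over tissue in place of 7, and 1 in place of 4 for organoids over assembloids.

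With the replicate number as a block, the 3 epithelial comparisons still called 7, 6 and 4 of the 10 genes and 9516, 9023 and 10070 of all genes. Without the block for library, fibroblasts over epithelial cells still called 6, telocyte-like over trophocyte-like cells called 1 in place of 3 (965 in place of 2517 of all genes), endothelial-like cells 2 in place of 4 and glia-like cells 1 in place of 2. The crypt axis of assembloids then had 2 in place of 5 (5562 in place of 8363 of all genes), and its difference from tissue 1 in place of 4 (1039 in place of 3467). Smooth muscle-like cells had 1 by DESeq2 (593 of all genes) and 1 with no filter (742), in place of 0 (320). Glia-like cells had 4 under a stricter gate. With a library left out, the crypt axis of tissue called 5659 to 9305 of all genes in place of 8580 (5659 without tissue library 1), and the difference 2 to 4 of the 10 and 1451 to 4215 of all (1451 and 1771 without tissue library 1 or 2).

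The mean share of cells with a Ccn1 UMI, 2.77% in organoids, 5.75% in assembloids, 9.07% in tissue and 17.6% in stromal fibroblasts, was 20.9%, 18.8%, 22.5% and 51.8% without thinning and 1.57%, 3.13%, 4.99% and 9.85% at 1000 UMIs. For Ccn2 the shares were 17.2%, 9.43%, 0.115% and 4.05% without thinning, and 1.28% and 1.37% in organoids and assembloids at 1000 UMIs. In tissue, Ccn2, Ankrd1 and Axl rest on at most 10 UMIs. A stricter smooth muscle gate left under 10 cells and gave no value, and with a library left out the fits of fibroblasts over epithelial cells and of the stromal classes have no residual degrees of freedom among libraries.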
